A study of Drosophila melanogaster with 10 samples.

Results

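Genes of the muscle sarcomere were followed over a 12 hour course in whole Drosophila melanogaster kept on food without yeast. The genes were chosen by name: Mhc, Mlc1, Mlc2, Tm1, Tm2, up, wupA, Prm, Act88F and fln. Every probe set that the platform annotation gives to one of these 10 genes alone was taken, which gave 8 probe sets of 7 genes among the 14010 probe sets of the table, which name 10844 genes. Act88F and fln, with 1 probe set each, are flight muscle genes. Mlc1, Mlc2, Tm2, Prm and up are general muscle genes with 6 probe sets, of which up has 2. Mhc, Tm1 and wupA were named by no probe set here and were not analysed.

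All 10 arrays come from 1 treatment, animals moved to yeast-free food early in the third larval instar and still on it as adults. The course began 4 days after emergence, and RNA of whole animals was hybridised at hours 1, 2, 3, 5, 6, 7, 9, 10, 11 and 12, with 1 array per hour. Per the labels, hours 4 and 8 gave too little RNA. Flies returned to yeast and the samples from before the course were not used here. The labels give no strain, sex or number of flies for a sample. Since no hour had a replicate array, a limma p-value here measures a fitted course against how far single arrays lie from it, and the number of arrays limits the precision.

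A sarcomere is the contractile unit of striated muscle, in which thick filaments of myosin slide along thin filaments of actin. Tropomyosin lies along the thin filament, and the troponin complex on it makes contraction depend on calcium. Myosin carries essential and regulatory light chains, and in insects paramyosin forms part of the core of the thick filament. The indirect flight muscles fill much of the thorax and are activated by stretch as well as by calcium. They have an actin of their own, encoded by Act88F, and the thick filament protein flightin, encoded by fln. In RNA of whole flies, fewer muscle cells and less RNA per muscle cell cannot be told apart.

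Intensities are linear values on the authors' normalized scale and compare a probe set between arrays, not with another probe set. Array medians lay between 111.1 and 120 intensity units. No marker of another cell type was listed at 0, but the lowest values, 10.4 for testis, 33.1 for neuron and 44.6 for eggshell markers, lay under the floor of 57.2 and do not show that those transcripts were present. Summed testis marker intensity (6 of 6 genes) ranged from 990 to 3263 in the later hours, 7 to 12, with the highest value at hour 7, and from 983 to 1058 in the earlier hours, 1 to 6. Summed yolk protein intensity (3 of 3 genes) ranged from 615 to 1071 in the later hours and from 842 to 3539 in the earlier hours. The eggshell sum (5 of 6 genes) ranged from 1052 to 1121 in the later hours and from 1104 to 2057 in the earlier hours. The photoreceptor sum (2 of 4 genes) ranged from 4431 to 5221 in the later hours and from 4299 to 5139 in the earlier hours. The neuron sum (3 of 4 genes) ranged from 662 to 914 in the later hours and from 709 to 996 in the earlier hours. Its lowest value came at hour 9. The part these cells take in the sarcomere values was not tested.

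No sarcomere gene passed a test over the course. Of the 8 probe sets, 0 were called in the linear trend over the hours by limma with Benjamini-Hochberg adjustment at 0.05, where 4 of all 8380 tested probe sets, 0.0477%, were called. Later against earlier hours called 0 of the 8, against 0.0119% of all tested probe sets, which is 1 probe set. A smooth course, a natural cubic spline with 3 degrees of freedom, called 0 of the 8 and 0% of all tested probe sets. At an unadjusted p under 0.05 these fits gave 1, 0 and 0 of the 8 members, and 311, 524 and 136 of all tested probe sets. An exact rank correlation with the hour also called 0 members. All 8 members were bright enough to be tested.

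The differences were small, and the number that shared a sign changed with the array left out. With all 10 arrays, all 8 fitted log2 differences of later minus earlier hours were negative, with a median of -0.10, and the median over all tested probe sets was -0.033, with 5314 of 8380 negative. The fitted log2 change from hour 1 to hour 12 was likewise negative for all 8, with a median of -0.084, against -0.041 over all tested probe sets. With hour 9 left out, 6 of the 8 later minus earlier differences were negative, with a median of -0.04, and 5 of the 8 fitted changes, with a median of -0.033. With hour 2, 3, 6, 7, 11 or 12 left out, all 8 later minus earlier differences stayed negative, with medians from -0.135 to -0.065. With hour 1, 5 or 10 left out, 6 of the 8 were negative. The median fitted change ranged from -0.201 with hour 12 left out to -0.033 with hour 9 left out. With hours 2, 9 and 10 left out the medians were -0.009 and 0.001. Those hours were chosen with the values known, and the members' medians were lowest at hours 9 and 10, -0.33 and -0.16. Leaving these later hours out raises the later values by construction, so nothing is read from that refit. The 8 values come from the same arrays and are not independent of each other.

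**Figure D1:**
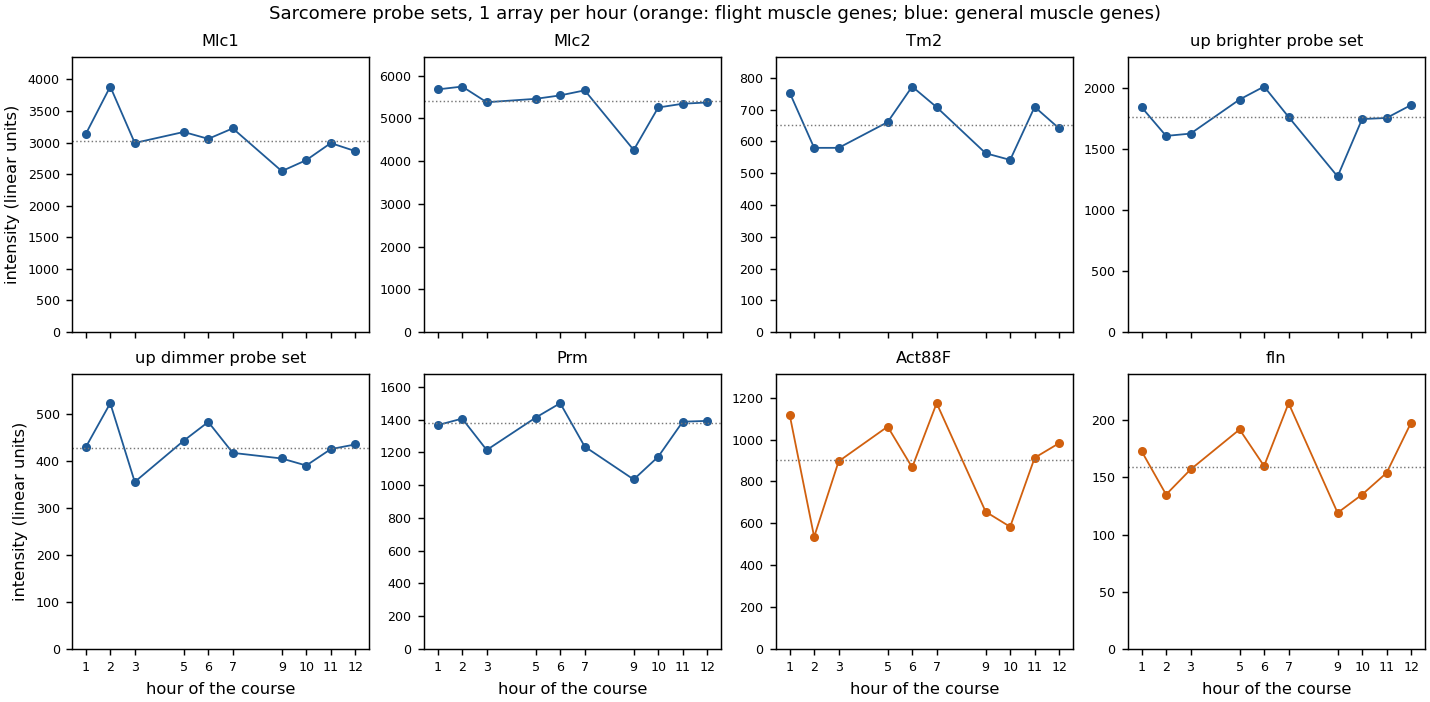
Intensity in linear units (vertical axis, from 0, with its own scale in each panel) by hour of the course for the 8 sarcomere probe sets, 1 point per array. The dotted line is the probe set's median over the 10 arrays. Flight muscle genes are orange and general muscle genes are blue. Act88F and fln have low points at hours 2, 9 and 10, and Mlc1, Mlc2, Prm and the brighter up probe set are lowest at hour 9.

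Among the thick filament genes, Mlc1 encodes the essential light chain of muscle myosin. Its intensity was 3134, 3887, 2994, 3168, 3059, 3225, 2548, 2722, 2992 and 2865 at hours 1, 2, 3, 5, 6, 7, 9, 10, 11 and 12. The highest value stood alone at hour 2, and the lowest came at hour 9. It averaged 2870 ± 258 in the later hours and 3248 ± 363 in the earlier hours (SD, n = 5 each), and the ranges overlapped. The later minus earlier difference was -0.18 on the log2 scale (SE 0.081, 95% interval -0.35 to 0.001, adjusted p = 0.803 by limma), and -0.11 with hour 2 left out. With hour 7 left out it was -0.22.

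Mlc1 was the member with the largest fitted change in size from hour 1 to hour 12, -0.29 on the log2 scale (SE 0.12, 95% interval -0.55 to -0.038). Its unadjusted p was 0.0278 and its adjusted p over all tested probe sets was 0.937 by limma. With the array of hour 2 left out the change was -0.18, and it was -0.09 without the arrays of hours 2, 9 and 10. The size of the fitted change therefore moved by more than 1.5 times with the single array of hour 2.

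Mlc2, which encodes the regulatory light chain of myosin, was the steadiest member on the log2 scale. Its intensity was 5675, 5742, 5375, 5455, 5535, 5653, 4258, 5252, 5340 and 5370 at the same hours. It lay between 5252 and 5742 on 9 arrays and dropped out of that range at hour 9 alone. The SD of its log2 values was 0.12, the 46.9th percentile among tested probe sets. It averaged 5175 ± 534 in the later hours and 5556 ± 152 in the earlier hours (SD, n = 5 each), a log2 difference of -0.11 (SE 0.066, adjusted p = 0.816). Leaving out hour 9 brought the difference to -0.04.

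Prm encodes paramyosin, a rod protein of the thick filament core. Its intensity ranged from 1034 at hour 9 to 1500 at hour 6, with a median of 1376. It averaged 1244 ± 151 in the later hours and 1379 ± 105 in the earlier hours (SD, n = 5 each), a log2 difference of -0.15 (SE 0.09, adjusted p = 0.816), and -0.09 with hour 9 left out or -0.077 with the course split after hour 5. The groups overlapped. Hour 9 was followed by the second lowest value, 1173, at hour 10, and by values near the median at hours 11 and 12.

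Among the thin filament genes, Tm2 encodes a tropomyosin of muscle. Its intensity ranged from 542 at hour 10 to 773 at hour 6, with a median of 651. Hours 2, 3, 9 and 10 were its low hours, with 580, 580, 563 and 542. It averaged 633 ± 78.8 in the later hours and 669 ± 92 in the earlier hours (SD, n = 5 each), a log2 difference of -0.08 (SE 0.11, adjusted p = 0.854). It was -0.04 with hour 9 left out, -0.026 with hour 10 left out and 0.024 with the course split after hour 5. With hour 2 or hour 3 left out it was -0.129.

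The gene up, short for upheld, encodes troponin T, the troponin subunit that binds tropomyosin. Its brighter probe set ranged from 1273 at hour 9 to 2009 at hour 6, with a median of 1756. Its dimmer probe set ranged from 356 at hour 3 to 524 at hour 2, with a median of 428. The probe sets differed in their highest and lowest hours, and their log2 values correlated with r = 0.285 over the 10 arrays. The later minus earlier log2 difference was -0.11 (SE 0.11, adjusted p = 0.825) for the brighter and -0.096 (SE 0.095, adjusted p = 0.825) for the dimmer probe set. Single arrays set most of both values, since the brighter gave -0.01 with hour 9 left out and the dimmer -0.037 with hour 2 left out.

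Act88F, the actin of the indirect flight muscles, varied most among the members. Its intensity was 1119, 535, 896, 1062, 867, 1174, 655, 583, 913 and 983 at hours 1, 2, 3, 5, 6, 7, 9, 10, 11 and 12. The values at hours 2, 9 and 10 reached at most 655, and the other 7 arrays had at least 867. The highest value was 2.19 times the lowest. At hour 2 the value was 0.587 times the median of the other arrays. The SD of its log2 values was 0.40, the 97.4th percentile among tested probe sets.

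The gene fln encodes flightin, which binds myosin in the thick filaments of flight muscle. Its intensity was 173, 135, 157, 192, 160, 215, 119, 135, 154 and 198 at the same hours. Again hours 2, 9 and 10 lay lowest, at no more than 135, against at least 154 on the other arrays, and hour 7 was highest. The SD of its log2 values was 0.27, the 90.9th percentile among tested probe sets. These percentiles are taken over probe sets of every brightness.

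High and low hours of both flight muscle genes lay in the later as well as the earlier hours. Act88F averaged 862 ± 242 in the later hours and 896 ± 228 in the earlier hours (SD, n = 5 each), a log2 difference of -0.059 (SE 0.23, 95% interval -0.56 to 0.44, adjusted p = 0.953). fln averaged 164 ± 40.9 in the later hours and 164 ± 21 in the earlier hours, a log2 difference of -0.021 (SE 0.16, 95% interval -0.36 to 0.32, adjusted p = 0.98). Both intervals span a difference in either direction that is larger than the fitted one. With hour 9 left out both differences turned sign, to 0.028 for Act88F and 0.086 for fln, and with hour 10 left out to 0.07 and 0.04. With hour 2 left out they were instead -0.234 and -0.087. Without the array of hour 2 the fitted change of Act88F from hour 1 to hour 12 was -0.43, against -0.076 with all arrays, with neither passing the test.

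**Figure D2:**
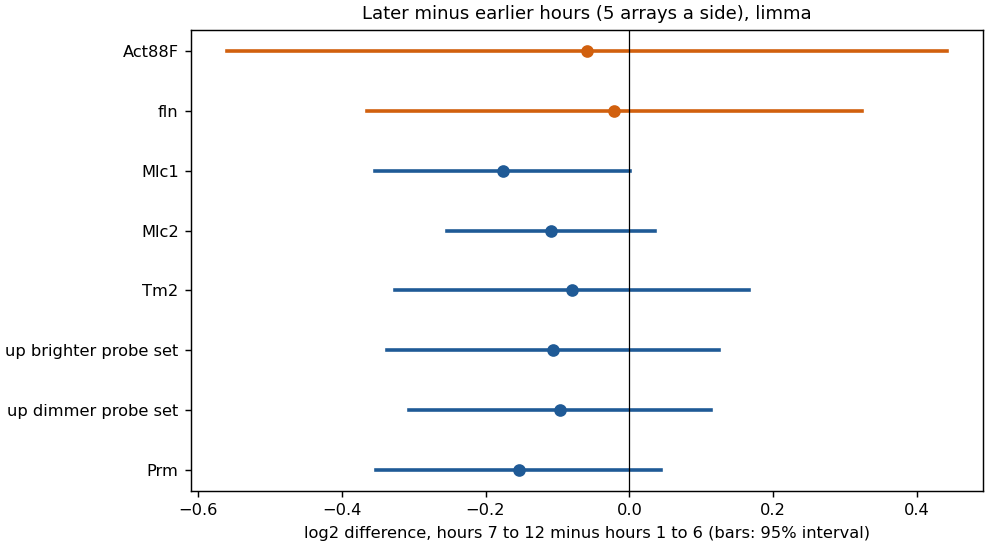
Later (hours 7 to 12) minus earlier (hours 1 to 6) difference in log2 intensity (horizontal axis) for each sarcomere probe set, with 5 arrays a side. Points are limma estimates and bars are 95% intervals. All 8 points lie left of 0 and all 8 intervals include 0, and the interval of Act88F, -0.56 to 0.44, is the widest.

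Hour 9 was low for the sarcomere genes as a group. The hour was singled out after the values were seen, so the counts are a description. The lowest of the 10 values fell at hour 9 for 5 of the 8 probe sets (Mlc1, Mlc2, the brighter up probe set, Prm and fln), where 10.4% of all tested probe sets had their lowest value at that hour. All 8 were below their own mean there, as were 59.7% of all tested probe sets. The log2 deviation from the own mean was -0.44 for the brighter up probe set, -0.44 for fln, -0.38 for Act88F, -0.34 for Prm and -0.33 for Mlc2. It was -0.26 for Mlc1, -0.20 for Tm2 and -0.079 for the dimmer up probe set. The median over the 8 was -0.33 at hour 9 and -0.16 at hour 10, whereas the median of all tested probe sets stayed between -0.051 and 0.043 at every hour.

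Single high hours were shared by fewer members. Mlc1, Mlc2 and the dimmer up probe set, 3 of the 8, were highest at hour 2, against 6.17% of all tested probe sets. Tm2, Prm and the brighter up probe set, also 3 of the 8, were highest at hour 6, against 18.8% of all tested probe sets. These hours were likewise picked with the values known.

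Flight muscle genes were set against general muscle genes by the mean log2 deviation of each set from its own mean. General muscle lay at 0.093, 0.10, -0.091, 0.066, 0.14, 0.042, -0.28, -0.13, 0.04 and 0.013 at hours 1, 2, 3, 5, 6, 7, 9, 10, 11 and 12. Flight muscle lay at 0.25, -0.46, 0.019, 0.29, 0.006, 0.44, -0.41, -0.40, 0.017 and 0.25 at the same hours. Both sets were low at hours 9 and 10. They parted at hour 2, where flight muscle was low and general muscle slightly above its mean, and at hour 7, where flight muscle was highest. The array of hour 7 also had the highest testis marker sum, 3263, against 983 to 1058 in the earlier hours. The part of this in the flight muscle value was not tested.

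Flight minus general muscle was -0.56 at hour 2 and -0.27 at hour 10, and 0.40 at hour 7. Hours 1, 3, 5 and 12 gave 0.16, 0.11, 0.22 and 0.24, with flight muscle above general muscle. Hours 6, 9 and 11 gave -0.14, -0.13 and -0.023. The SD over the arrays was 0.28. Its fitted change from hour 1 to hour 12 was 0.093, with a residual SD of 0.30, and it turned sign when 1 array was left out, to -0.17 for hour 2 and to -0.03 for hour 12. The flight and general muscle sets thus showed no difference in trend larger than the scatter between hours, and no p is given for this score over chosen genes.

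**Figure D3:**
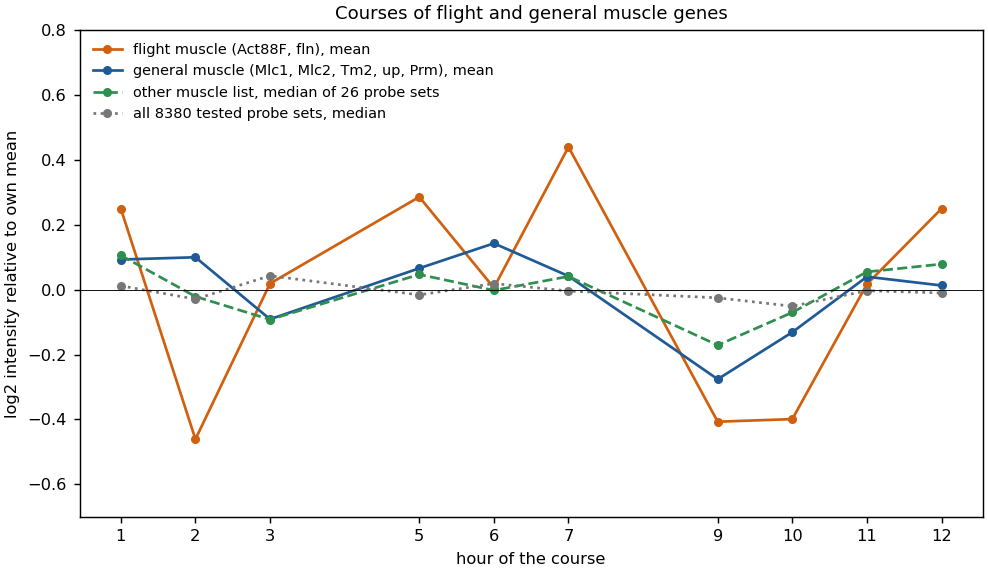
Log2 intensity relative to the own mean (vertical axis) by hour of the course. Orange is the mean of the flight muscle genes, blue the mean of the general muscle genes, green the median of 26 other muscle probe sets and grey the median of all 8380 tested probe sets. Flight muscle lies at -0.46, -0.41 and -0.40 at hours 2, 9 and 10, and general muscle is lowest at hour 9, at -0.28.

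Hours 2, 9 and 10 together were the low hours of both flight muscle genes. For Act88F and fln these were the 3 lowest arrays, 2 of the 8 members, against 6.26% of all tested probe sets. The same held for 3 of the 26 tested probe sets of other muscle genes, so the pattern was not particular to these 2 genes. Values below the own mean at all 3 hours were found for Tm2, Act88F and fln, 3 of the 8, against 28.8% of all tested probe sets, and nothing is read from that count. The set of hours was chosen after the values were seen. TpnC4, which encodes the troponin C of stretch-activated flight muscle, was too dim to be tested. Its intensity was lowest at hour 2, with 40, and highest at hour 7, with 91.8. Hours 9 and 10 gave 60.2 and 63.1.

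The same 3 hours stood apart in a control of the array. The probe sets of the 18S ribosomal RNA control, taken near its 3′ and 5′ ends, gave 3′ over 5′ ratios of 9.36, 4.47 and 6.45 at hours 2, 9 and 10. On the other 7 arrays the ratio ranged from 2.43 to 4.02. The 5′ probe set gave 26, 40.3 and 26.6 at hours 2, 9 and 10, under the floor of 57.2. At hour 5 it gave 51.7, also under the floor. No floor was applied to the ratios, so the high ones rest on a dim 5′ signal and are uncertain as a measure of the array. Ratios of the other controls did not separate these hours and ranged from 1.8 to 2.56 for actin, 2.88 to 4.77 for Gapdh and 2.94 to 4.8 for eIF-4a.

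Act88F correlated with the log2 of the 18S ratio with r = -0.819 over the 10 arrays (permutation p = 0.00483, adjusted over all 8380 tested probe sets 0.129). The rank correlation was -0.455 (permutation p = 0.191). Without hours 2 and 10, the arrays farthest from the median ratio, r was -0.366, so the relation rests on those arrays. Without hours 2, 9 and 10 it was 0.487. Of all tested probe sets, 2.43% had an r at or below that of Act88F, and 4 passed the adjusted test. For the other members r was -0.705 for Tm2, -0.552 for fln, -0.406 for the brighter up probe set, -0.217 for Prm, -0.081 for Mlc2, 0.304 for the dimmer up probe set and 0.312 for Mlc1. None of these passed the adjusted test. The relation was looked for after the values were seen, and the part of the control ratio in the flight muscle course was not tested.

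**Figure D4:**
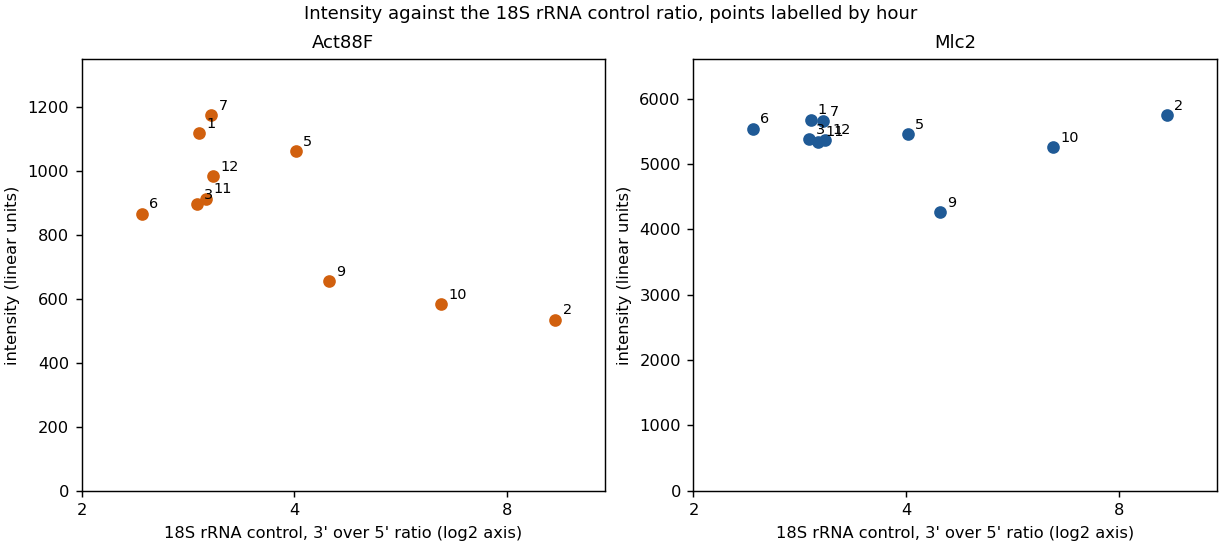
Intensity in linear units (vertical axis, from 0) against the 18S ribosomal RNA 3′ over 5′ control ratio (horizontal axis, log2 spaced) for Act88F and Mlc2, 1 point per array, labelled by hour. Act88F is lowest, at 535 to 655, on the 3 arrays with the highest ratios, while Mlc2 is lowest at hour 9 and highest at hour 2. The 5′ control signal lies under the floor of 57.2 at hours 2, 5, 9 and 10.

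Pairwise correlations of the courses depended on a few arrays. Over the 10 arrays the 15 pairs of general muscle probe sets correlated with r between 0.234 and 0.816, with a median of 0.652 and all above 0. Over all pairs of tested probe sets the median r was 0.051, with 54.2% above 0 and 8.38% at or above 0.652. The 12 pairs of a flight with a general muscle probe set ranged from -0.189 to 0.734, with a median of 0.403, and 10 were above 0. With the 2 arrays farthest from the median of the first gene left out of each pair, the medians were 0.64 for flight with general pairs and 0.358 for general pairs, the opposite order. No difference between the kinds of pair is therefore read from these values. All pairs share the same 10 arrays and their normalization. The closest general pair was the brighter up probe set with Prm, at 0.816, but without hours 6 and 9 it stood at 0.354. Mlc1 and Mlc2, both light chains, correlated with r = 0.759, and Mlc1 with Act88F at 0.

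Act88F and fln formed the closest of the 28 pairs, with r = 0.867 (permutation p = 0.00127) and a rank correlation of 0.855 (permutation p = 0.0029). Adjusted over the 8379 other tested probe sets p was 0.211, and 0 probe sets passed with Act88F. By r with Act88F, fln ranked 35 among those 8379, and 21.8% of them had an r over 0.5. Without hours 2 and 10, r was 0.917. On the 7 arrays other than hours 2, 9 and 10 it was 0.792 (permutation p = 0.0503).

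**Figure D5:**
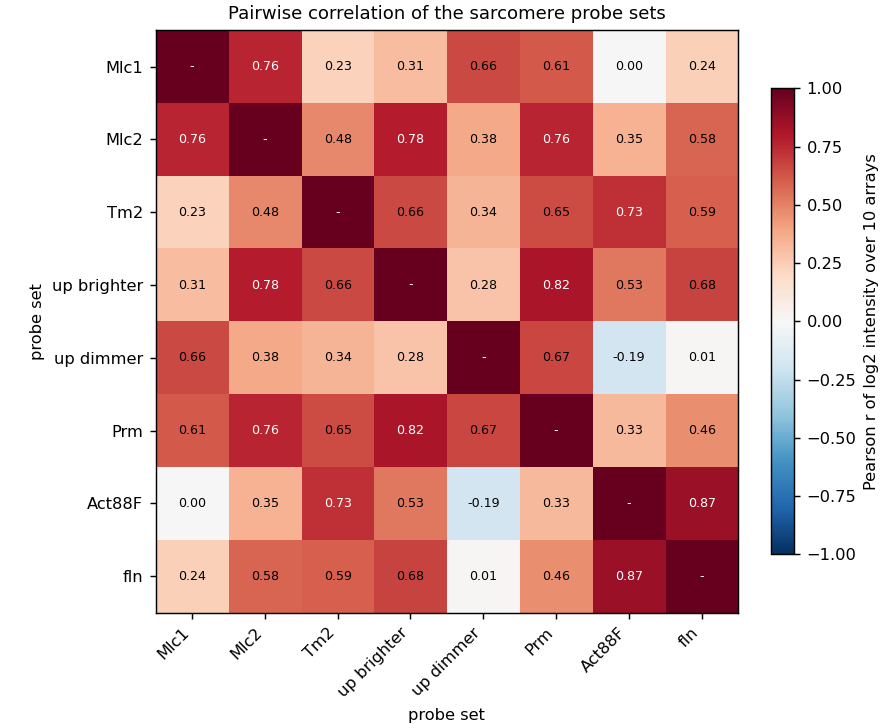
Pearson correlation of log2 intensity over the 10 arrays for each pair of sarcomere probe sets (colour scale from -1 to 1, value in each cell). Act88F with fln has the highest value, 0.867, and the dimmer up probe set with Act88F the lowest, -0.189.

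By likeness over the same 10 arrays, given as a description, the general muscle course was followed most closely by Nrg (r = 0.971), ena (0.964), alt (0.952), CG14185 (0.948) and Actn (0.931). Nrg encodes a cell adhesion protein, ena a regulator of actin assembly and Actn the alpha-actinin of the Z disc. All of these were lowest at hour 9. The flight muscle course was followed most closely by mAcon1 (0.942), Gapdh1 (0.933), CG12643 (0.93), tub (0.927) and PolI (0.926). mAcon1 encodes mitochondrial aconitase, with 1185 at hour 9 and 1902 at hour 7. Gapdh1 encodes a glycolytic enzyme, with 2556 at hour 9 and 3612 at hour 7. The other probe sets were dimmer, with 106 to 129 for CG12643, 94.3 to 108 for tub and 152 to 205 for PolI. Those of tub and CG12643 lay near the limit for testing. No shared function is read from these genes.

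A list of 22 other muscle genes gave 26 tested probe sets of 16 genes. None was called by limma in the trend, in later against earlier hours or in the smooth course. An unadjusted limma p under 0.05 was found for 1, 4 and 0 of them, and for 311, 524 and 136 of all 8380. Those 4, of TpnC41C, Mlp84B, Actn and sls, were all lower in the later hours. Over the list 16 of the 26 later minus earlier differences were negative, against 5314 of all 8380. Their median log2 change from hour 1 to hour 12 was -0.038, close to that of all tested probe sets. At hour 9, 24 of the 26 were below their own mean, against 59.7% of all tested probe sets, and 11 had their lowest value, against 10.4%. With the smallest trend p in the list, Argk1, the arginine kinase that buffers ATP in muscle, had a change of -0.26 (SE 0.12) by its brighter probe set and 0.059 (SE 0.11) by its dimmer one. A probe set of Zasp52, a Z disc protein, had 0.42 (SE 0.21). Probe sets of sls, which encodes the titin-like protein sallimus, had 0.39 (SE 0.19) and -0.30 (SE 0.16) and so went opposite ways. The 4 with the smallest trend p, which leave out the dimmer Argk1 probe set, had an adjusted p of 0.937 by limma.

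Genes of calcium handling and of the cytoskeleton outside muscle gave no call either. Of 5 calcium genes 3 were tested, and the log2 change from hour 1 to hour 12 was 0.17 for RyR, the calcium release channel, -0.069 for SERCA, the calcium pump, and -0.059 for Ca-alpha1D, a channel subunit. Of 8 genes of the non-muscle cytoskeleton 4 were tested, with -0.34 for tsr, which encodes cofilin (adjusted p = 0.937), -0.11 for chic, which encodes profilin, 0.077 for cher, a filamin, and 0.096 for the light chain gene Mlc-c. Among 5 regulators of muscle genes only salm had a probe set, which was too dim to be tested.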

How the data were processed

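RNA of whole flies was measured on 10 Affymetrix arrays. The deposited table holds linear intensities, which the authors normalized with dChip to a set of probes of invariant rank, per the labels. The sources used here do not give the dChip version or its expression model. Such scaling would remove a change shared by most transcripts.

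Of 14010 probe sets, 44 were controls. The platform annotation named 1 gene for 12443 and several for 327, which named none. Intensities under the 20th percentile (57.2) were set to it before log2, so fold changes of dim probe sets are understated. The 8380 probe sets with a mean log2 at or above the 40th percentile (93.8 intensity units) were tested.

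The trend, later against earlier (hours 7 to 12 minus hours 1 to 6) and spline fits used limma 3.58.1 (lmFit, eBayes with an intensity trend, two-sided) in R 4.3.3 over all tested probe sets, with Benjamini-Hochberg adjustment at 0.05. Correlations used 100000 permutations, or the exact distribution for ranks with the hour. Python 3.11.15 with pandas 2.3.3, scipy 1.17.1 and matplotlib 3.10.9 did the rest.

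All members are reported. Of each other list, up to 4 tested probe sets with the smallest trend p are named, and the 5 genes most like each muscle course. The members and lists were chosen with earlier results of these data known. The single hours, the 18S ratio, the correlations and the flight minus general value at hour 2 were taken up after the values were seen. The correlations of Act88F with fln and with the 18S ratio were first adjusted over the sarcomere genes alone, where both passed. Since those genes were chosen with results known, the printed values are adjusted over all tested probe sets, where neither passes. Other normalizations, floors, filters, variance models, splits and curves were tried as alternatives, and single arrays were left out in turn.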

Additional observations from a re-analysis of the deposited data

Results flagged for a closer look

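The series of 10 arrays examined were 44: the 8 sarcomere probe sets, the general course, the flight course, their difference, and each tested probe set of the other lists. In 5 of them an array had a gap to its nearest neighbour that was large for the range of the series, and chance gives about 1 in 20. The intensity of Mlc1 was 3887 at hour 2, and the next highest was 3225. The intensity of Mlc2 was 4258 at hour 9, and the next lowest was 5252. Mlp84B, a muscle LIM protein of the Z disc, had 991 at hour 9, and the next lowest was 1608. The brighter Argk1 probe set had 4164 at hour 2, and the next highest was 3561. The brightest Strn-Mlck probe set, of a titin-like kinase gene, had 620 at hour 3, and the next highest was 437.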

How the results depend on the processing

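No paired analysis was possible because all 10 arrays belong to 1 group with 1 array per hour. Under 21 alternatives to the trend, 20 to later against earlier hours and 21 to the smooth course, 0 sarcomere probe sets were called, with smallest adjusted p-values of 0.666, 0.644 and 0.658. Over all tested probe sets those alternatives gave 0 to 5, 0 to 3 and 0 to 6 calls, against 4, 1 and 0 as reported. Other muscle genes gave 0 calls in the trend under 21 alternatives. Of 320 refitted member changes 39 turned sign, none with an adjusted p under 0.05. For fln the sign turned in 9 of 20 trend and 7 of 20 later against earlier refits, for Act88F in 3 and 6, and for Mlc1 and Mlc2 in 0.

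The fitted change of flight minus general muscle, 0.093, ranged from -0.17 to 0.23 with single arrays left out and was -0.005 without hours 2, 9 and 10. Its value at hour 2, -0.56, was -0.77 with Act88F alone and -0.35 with fln alone. The median of the sarcomere probe sets at hour 9, -0.33, was -0.28 after quantile normalization. The correlation of Act88F with fln lay between 0.841 and 0.884 with single arrays left out. It was 0.792 without hours 2, 9 and 10, with an unadjusted permutation p of 0.0503 on 7 arrays. With all 10 arrays its permutation p adjusted over all tested probe sets, 0.211, did not pass either. With 1 array per hour, a deviation of a single hour could not be set against an error of that hour.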

Other observations

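Among other muscle genes, chosen after their values were seen, the lowest value came at hour 9 for some probe sets and not for others. Of the 26 tested probe sets, 24 were below their own mean at hour 9. A probe set of bt, which encodes the titin-like projectin, had 71.2 at hour 9 and a highest value of 282 at hour 1. A second bt probe set was lowest at hour 10 instead, with 202 there and 269 at hour 9. Mlp84B, a muscle LIM protein of the Z disc, had 991 at hour 9 and 2167 at hour 6. Actn had 554 at hour 9 and 964 at hour 6. A Zasp52 probe set was lowest at hour 3 instead, with 519 there and 680 at hour 9, and an sls probe set at hour 2, with 327 there and 419 at hour 9.

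Of the 26 tested probe sets of the other muscle list, 3 were highest at hour 2, against 6.17% of all tested probe sets. They were the brighter Argk1 probe set with 4164, Mf, which encodes the thick filament protein myofilin, with 2363, and Act87E with 4201. The dimmer Argk1 probe set was highest at hour 10, with 310, and had 269 at hour 2. The Act87E probe set is of a type that can share signal between actin genes. All 3 tested calcium handling genes were highest at hour 6, as were 8 of the 26 other muscle probe sets and 18.8% of all tested probe sets. These hours were picked with the values known.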
